A study of Homo sapiens with 6 samples.

Results

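YAP and TAZ are transcriptional coactivators, and 10 genes around them were followed in DU145 cells: the coactivators YAP1 and WWTR1 (which encodes TAZ), the DNA-binding partner TEAD1, the upstream regulators LATS2 and PTPN14, and the targets CCN1, CCN2, ANKRD1, AMOTL2 and CRIM1. Members were taken by gene symbol, as probe sets whose platform annotation gives exactly 1 symbol and that symbol in this list. They hold 25 probe sets of 10 genes, out of 41091 probe sets of 19775 genes. DU145 is an established line of human prostate cancer, and hepatocyte growth factor (HGF) acts through its receptor c-MET, a tyrosine kinase. The cells were kept in medium with charcoal-stripped serum and were given either vehicle or 25 ng/ml HGF, with harvest at 2, 8 and 24 h. RNA of each condition went onto a single Affymetrix U133plus2.0 array (6 in all), so that no time point had a replicate and no p-value could be computed within a time point.

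Neither YAP nor TAZ binds DNA alone. In the nucleus they join TEAD factors at the promoters and enhancers of growth and matrix genes, whereas the Hippo kinase cascade, which ends in LATS1 and LATS2, phosphorylates them so that they stay in the cytoplasm or are degraded. PTPN14 is a phosphatase that binds YAP and holds it outside the nucleus. Since much of this control acts on protein, RNA levels of the coactivators do not report their activity, and the target genes are commonly read instead. LATS2 and AMOTL2 belong to both sides, as inhibitors of YAP that are also its transcriptional targets.

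TEAD factors recognise the core GGAATG, and the sequences just before the starts of CCN2, ANKRD1 and AMOTL2 are shown because CCN2 had the largest ratio of the targets, AMOTL2 a smaller one and ANKRD1 no value above the floor. Each run holds the 250 bases before the annotated start, 5′ to 3′ on the gene's own strand, from RefSeq on GRCh38.p14, with GGAATG or its reverse complement CATTCC in capitals. The windows lie at chr6:131951373-131951622 for CCN2, chr10:90921088-90921337 for ANKRD1 and chr3:134374448-134374697 for the AMOTL2 start with a match, all on the minus strand.
CCN2: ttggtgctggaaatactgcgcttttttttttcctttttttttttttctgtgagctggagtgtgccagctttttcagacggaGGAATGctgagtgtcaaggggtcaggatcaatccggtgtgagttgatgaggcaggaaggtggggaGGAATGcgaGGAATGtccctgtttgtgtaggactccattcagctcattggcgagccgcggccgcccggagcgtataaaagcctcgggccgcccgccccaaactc
ANKRD1: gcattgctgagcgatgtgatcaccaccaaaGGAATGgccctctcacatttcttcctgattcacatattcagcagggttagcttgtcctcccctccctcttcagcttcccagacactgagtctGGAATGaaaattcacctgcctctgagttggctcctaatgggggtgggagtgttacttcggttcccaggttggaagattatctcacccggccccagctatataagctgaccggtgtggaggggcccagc
AMOTL2: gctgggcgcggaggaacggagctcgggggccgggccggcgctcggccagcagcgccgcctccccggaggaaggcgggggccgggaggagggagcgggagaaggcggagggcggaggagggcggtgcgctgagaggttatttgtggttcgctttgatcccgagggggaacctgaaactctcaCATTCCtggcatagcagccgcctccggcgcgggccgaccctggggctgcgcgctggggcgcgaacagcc
The CCN2 window held 3 matches, which began 169, 104 and 95 bases before the start. The ANKRD1 window held 2, at 220 and 128 bases, and this AMOTL2 window held 1, at 69 bases, while the window of the other AMOTL2 start held 0. Of all 35116 windows of this length, 11.9% held at least 1 match, 0.940% at least 2 and 0.0826% at least 3. PTPN14 and YAP1 held 1 match each, at 200 and 162 bases, and LATS2 and WWTR1 held 0. A match of letters is a description and not a measured binding site.

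The values are intensities, scaled here so that every array had a mean of 150, with values under a floor of 30 raised to 30. Depending on the array, 33.1% to 36.7% of probe sets exceeded the floor. A gene's log2 ratio is the mean over its probe sets, and a gene passed the selection rule where any of its probe sets reached 2-fold and this mean was 0.5 or more in the same direction. This took 83 genes as higher and 11 as lower after HGF for 2 h, 531 higher and 1571 lower at 8 h, and 204 higher and 110 lower at 24 h. The split at 8 h moved to 741 higher and 1320 lower with centred ratios and to 1086 higher and 998 lower with quantile normalization. The poly-A spikes, added before labelling, had a geometric mean over 12 probe sets of 88.1 in the vehicle array of 8 h and of 157.6 to 327.4 in the other arrays. The ACTB 3′ to 5′ ratio, a measure of RNA integrity, was 1.17 and 1.13 at 2 h, 1.36 and 1.31 at 8 h and 1.63 and 1.71 at 24 h (vehicle and HGF). With vehicle the GAPDH 3′ to 5′ ratio was 0.92, 0.99 and 0.96 at 2, 8 and 24 h. With HGF it was 0.95, 0.94 and 1.01. The part of the spike levels or of the 3′ to 5′ ratios in the results was not tested. All 5 epithelial markers were above the floor, as were 1 of 4 fibroblast markers (COL1A1, 54.5 to 97.3), 1 of 3 markers of androgen-responsive prostate cells, 0 of 3 leukocyte markers and 0 of 3 endothelial markers.

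Of the 10 members, 9 exceeded the floor on some array, and so did 24 of the 25 probe sets. At 2 h CCN2 alone passed the selection rule, higher with HGF (1 of 10, against 0.420% of all genes higher and 0.0556% lower). At 8 h YAP1, TEAD1 and CRIM1 passed as lower and 0 members as higher, where 7.94% of all genes passed as lower and 2.69% as higher. Among genes above the floor, the share passing as lower at 8 h was 14.6%. At 24 h WWTR1 passed as higher and PTPN14 as lower, against 1.03% and 0.556% of all genes. Each time point thus had its own members that passed, and LATS2, CCN1, AMOTL2 and ANKRD1 did not pass at any time. An array reads the RNA of all cells of a culture, so less RNA per cell and fewer cells with a transcript cannot be told apart. The median log2 ratio of the 9 members above the floor was 0.15, -0.16 and -0.04 at 2, 8 and 24 h, beside -0.02, -0.02 and 0.01 over all genes above the floor.

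YAP1 and WWTR1, the 2 coactivators, differed in their time course. On the YAP1 probe set 224894_at, vehicle read 655, 856 and 534 at 2, 8 and 24 h, and HGF read 690.4, 484 and 812.2. Probe set 224895_at read 397, 476 and 247 with vehicle and 352, 206 and 259 with HGF. The third, 213342_at, read 289, 240.1 and 156 with vehicle and 279.9, 246 and 278 with HGF. The HGF array of 8 h was thus low on 2 of the 3 probe sets, the vehicle array of 24 h was the lowest on 213342_at, and vehicle and HGF values overlapped on every probe set. The YAP1 log2 ratio of HGF over vehicle was -0.05 at 2 h, -0.67 at 8 h and 0.50 at 24 h. The ratio at 8 h came from 224894_at and 224895_at, at -0.82 and -1.21, while 213342_at gave 0.04. At 24 h no YAP1 probe set reached 2-fold, with log2 ratios of 0.84, 0.61 and 0.07. Without HGF the YAP1 level was lower at 24 h than at 2 h by a log2 ratio of -0.62 and than at 8 h by -0.75, so that YAP1 differed as much between vehicle arrays as with HGF. Against the mean of the other 2 vehicle arrays, its ratio was -0.23 at 8 h and -0.18 at 24 h, and it passed at neither time.

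WWTR1 had the only log2 ratio above 1 among the members at 24 h. Its probe set 202133_at read 772, 1038 and 723 with vehicle and 787, 903 and 1419 with HGF at 2, 8 and 24 h. Probe set 202132_at read 387, 539 and 274 with vehicle and 478, 459 and 636 with HGF. Both had their highest value in the HGF array of 24 h. Probe set 202134_s_at read 128, 122 and 139 with vehicle and 153, 360.1 and 284 with HGF, and here all HGF values lay above all vehicle values. The gene ratio was 0.20 at 2 h, 0.38 at 8 h and 1.07, or 2.10-fold, at 24 h. At 24 h the 3 WWTR1 probe sets gave 1.22, 0.97 and 1.03. At 8 h they disagreed, with 1.56 for 202134_s_at and -0.23 and -0.20 for the other 2, so the direction at that time depends on the probe set. Between vehicle arrays the WWTR1 ratio was 0.28 (8 over 2 h), -0.16 (24 over 2 h) and -0.44 (24 over 8 h), each smaller in size than the ratio with HGF at 24 h.

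**Figure D1:**
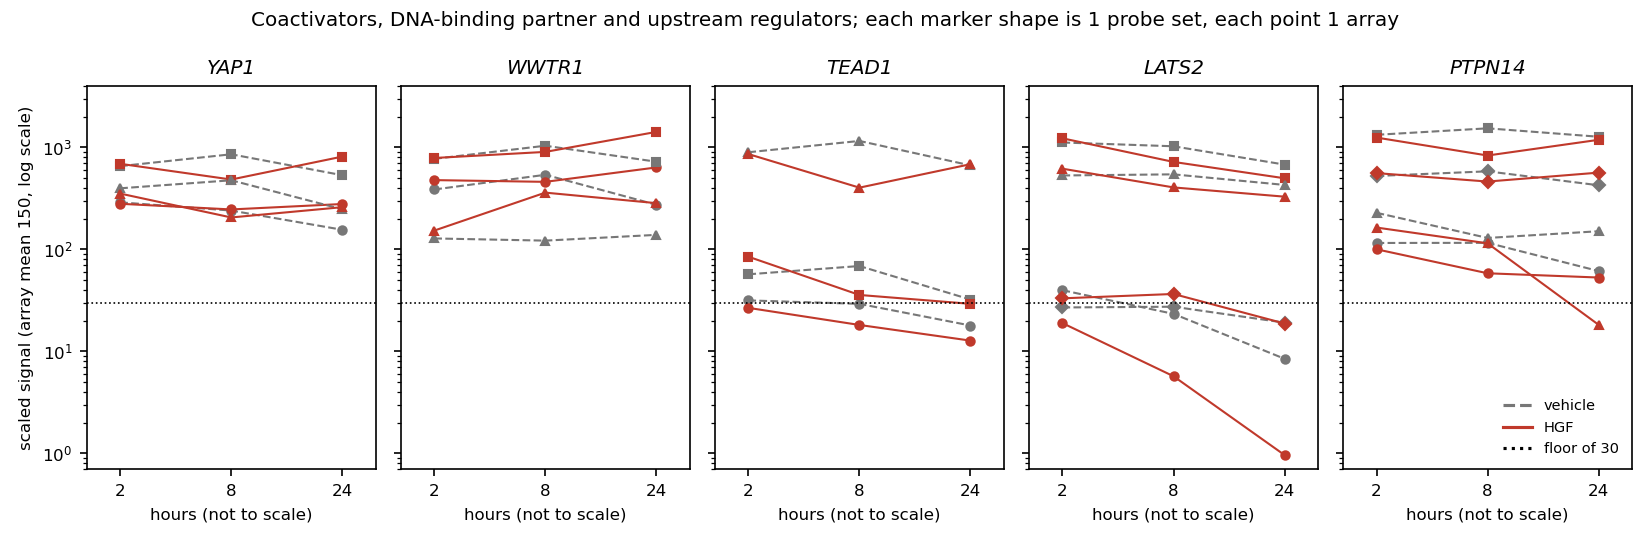
Scaled signal (log axis, array mean 150) of every probe set of YAP1, WWTR1, TEAD1, LATS2 and PTPN14 at 2, 8 and 24 h, with vehicle in grey dashed lines and HGF in red, 1 array per point and the floor of 30 dotted. All 3 WWTR1 probe sets were higher with HGF at 24 h, and the brightest TEAD1 probe set was lowest in the HGF array of 8 h, at 402.8.

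TEAD1, which carries YAP and TAZ to DNA, was lower with HGF at 8 h. Its brightest probe set, 224955_at, read 896, 1157 and 666 with vehicle and 860.3, 403 and 684 with HGF at 2, 8 and 24 h. Probe set 214600_at read 56.9, 68.6 and 32.2 with vehicle and 84.7, 35.7 and 29.2 with HGF. The vehicle array of 8 h was the highest on the first and the HGF array of 8 h the lowest, while values at 2 and 24 h differed little between vehicle and HGF on that probe set. The TEAD1 log2 ratio was 0.15 at 2 h, -0.82 at 8 h and -0.02 at 24 h, and 224955_at alone gave -1.52 at 8 h. Its probe set 1553322_s_at stayed between 12.7 and 31.6, close to or under the floor, and adds a ratio of 0 to the mean at 8 h. TEAD1 also passed the rule as lower between vehicle arrays, at 24 over 8 h, with a log2 ratio of -0.63, where 2.97% of all genes passed as lower. That comparison and the one with HGF at 8 h share the vehicle array of 8 h. With the other 2 vehicle arrays as reference, the TEAD1 ratio at 8 h was -0.41 and did not pass.

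LATS2, the kinase that phosphorylates YAP and TAZ, did not pass the rule at any time against the vehicle array of that time. Its probe set 223380_s_at read 1117, 1025 and 678 with vehicle and 1228, 720.3 and 498 with HGF at 2, 8 and 24 h. Probe set 227013_at read 530.4, 544 and 428 with vehicle and 618, 405 and 329 with HGF. On both, HGF was above vehicle at 2 h and below it at 8 and 24 h, and the HGF array of 24 h was the lowest of all 6. These 2 probe sets gave log2 ratios of -0.51 and -0.43 at 8 h and -0.45 and -0.38 at 24 h. The LATS2 mean over all 4 probe sets was 0.02, -0.16 and -0.21 at 2, 8 and 24 h, since the other 2 probe sets read between 0.961 and 39.8, around and under the floor. LATS2 passed as lower without a floor at 8 and 24 h (-0.64 and -0.98), which rests on those dim values, and at 24 h with the other 2 vehicle arrays as reference (-0.50).

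PTPN14 was lower with HGF than with vehicle of the same time at all 3 times, by its mean over probe sets. Its brightest probe set, 226282_at, read 1329, 1538 and 1272 with vehicle and 1248, 832 and 1187 with HGF at 2, 8 and 24 h. Probe set 205503_at read 116, 116 and 61.3 with vehicle and 100.2, 58.3 and 52.9 with HGF. On these 2 every HGF value was below the vehicle value of its time, although on 205503_at the ranges of the groups overlapped. Probe set 242321_at read 228, 129 and 151 with vehicle and 164, 115 and 18.2 with HGF. The fourth PTPN14 probe set, 244533_at, read 524, 583 and 425 with vehicle and 559, 462 and 566 with HGF, and was higher with HGF at 2 and 24 h. The gene's log2 ratio was -0.17 at 2 h, -0.60 at 8 h and -0.56 or lower at 24 h. PTPN14 passed at 24 h through 242321_at alone, which was at least 5.02-fold lower because its HGF value lay under the floor, while the other 3 gave -0.21, -0.10 and 0.41. At 8 h PTPN14 did not pass, although its mean was lower, because the probe set with the largest ratio reached 1.99-fold.

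Among the targets, CCN2, which encodes connective tissue growth factor, had the largest ratio of all members. CCN2 has a single probe set, 209101_at, which read 429.7 with vehicle and 1464 with HGF at 2 h, 377 and 422 at 8 h, and 295 and 222 at 24 h. The HGF array of 2 h stood above the other 5, which lay between 222 and 429.7. CCN2 was 3.41-fold higher with HGF at 2 h, a log2 ratio of 1.77, and the log2 ratio was 0.16 at 8 h and -0.41 at 24 h. Between vehicle arrays the CCN2 log2 ratio was -0.19, -0.54 and -0.35 for 8 over 2, 24 over 2 and 24 over 8 h. The order of the 6 arrays was HGF 2 h, vehicle 2 h, HGF 8 h, vehicle 8 h, vehicle 24 h and HGF 24 h, and with 1 array each the neighbours below the first could not be told apart by a replicate spread.

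CCN1, which encodes the related matrix protein CYR61 and is an early gene in many cell types, had the same order of ratios over time at a smaller size. Its probe set 201289_at read 2101, 2256 and 2355 with vehicle and 2753, 2770 and 1984 with HGF at 2, 8 and 24 h. Probe set 210764_s_at read 1026, 1056 and 892 with vehicle and 1410, 1015 and 726 with HGF. Both probe sets were higher with HGF at 2 h and lower at 24 h, and at 8 h they went opposite ways. The CCN1 log2 ratio was 0.42 at 2 h, 0.12 at 8 h and -0.27 at 24 h, while between vehicle arrays it was 0.07, -0.02 and -0.09. No CCN1 probe set reached 2-fold.

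AMOTL2, an angiomotin family protein that binds YAP at cell junctions, read 660.3, 607 and 571 with vehicle and 976, 862 and 648 with HGF at 2, 8 and 24 h on its only probe set, 203002_at. HGF was above vehicle at each time, and the ranges of the groups overlapped only because the HGF value of 24 h lay below the vehicle value of 2 h. The AMOTL2 log2 ratio was 0.56, 0.51 and 0.18, and between vehicle arrays it was -0.12, -0.21 and -0.09. The ratios at 2 and 8 h passed a mean of 0.5 without reaching 2-fold.

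CRIM1, a transmembrane protein with cysteine-rich repeats, was lower with HGF at 8 h on all 3 of its probe sets. Probe set 202551_s_at read 813, 898 and 564 with vehicle and 817, 488 and 539 with HGF at 2, 8 and 24 h. Probe set 228496_s_at read 751, 581 and 337 with vehicle and 765, 249 and 359 with HGF, and 202552_s_at read 299.6, 375 and 311 with vehicle and 335, 205 and 281 with HGF. The HGF array of 8 h was the lowest of all 6 on each probe set. The CRIM1 log2 ratio was 0.06 at 2 h, -0.99 at 8 h and -0.04 at 24 h, and at 8 h its probe sets gave -0.88, -0.87 and -1.23. With the other 2 vehicle arrays as reference, CRIM1 still passed at 8 h, at -0.69. CRIM1 also passed as lower between the vehicle arrays of 24 and 2 h, with a log2 ratio of -0.54, where 1.16% of all genes passed as lower.

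ANKRD1, a nuclear ankyrin repeat protein that is often used as a readout of YAP, was not measured above the floor. Its probe set 206029_at read 10.6, 8.47 and 6.24 with vehicle and 13.0, 10.3 and 5.60 with HGF at 2, 8 and 24 h. All 6 values were under 30, so no ratio is given.

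**Figure D2:**
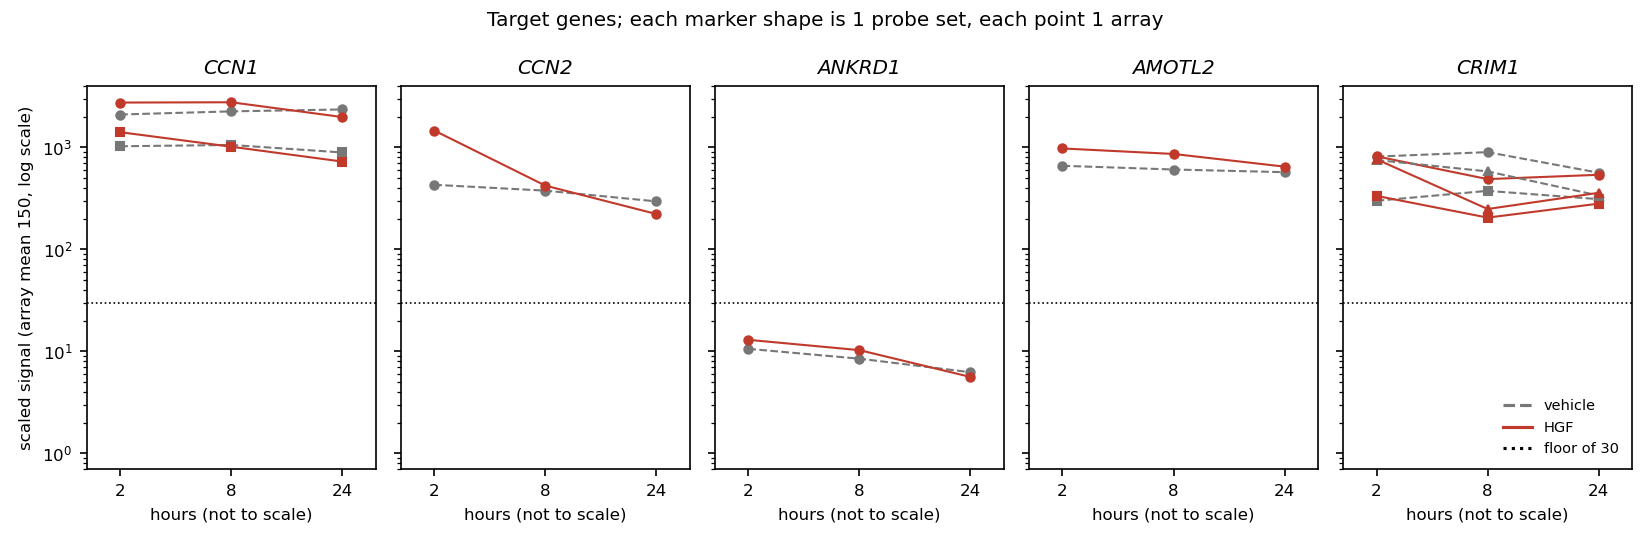
Scaled signal (log axis, array mean 150) of every probe set of CCN1, CCN2, ANKRD1, AMOTL2 and CRIM1 at 2, 8 and 24 h, with vehicle in grey dashed lines, HGF in red, 1 array per point and the floor of 30 dotted. CCN2 reached 1464 in the HGF array of 2 h, the 3 CRIM1 probe sets were lowest in the HGF array of 8 h, and ANKRD1 stayed between 5.60 and 13.0.

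The medians of regulators and targets were compared by time. At 2 h the median log2 ratio was 0.49 over the 4 targets above the floor, 0.07 over the 2 coactivators and 0.02 over TEAD1, LATS2 and PTPN14. At 8 h the same medians were 0.14, -0.14 and -0.60, and at 24 h -0.16, 0.79 and -0.21. The coactivator value at 24 h is the midpoint of WWTR1 at 1.07 and YAP1 at 0.50. Against the mean of all 3 vehicle arrays these were 0.88 and 0.05. The targets were also unlike each other at 8 h, where CRIM1 was at -0.99 and AMOTL2 at 0.51. In the plot of ratios by gene, the ratios between vehicle arrays show how much each gene differed without HGF, which includes time in culture. Between vehicle arrays, 0 members passed at 8 over 2 h, where 0.480% of all genes passed in either direction, and CRIM1 and TEAD1 were the only members to pass in the comparisons with 24 h. Both of those comparisons use the vehicle array of 24 h. The median of all probe sets above the floor was itself lower in that array, by a log2 ratio of -0.17 against 2 h and -0.19 against 8 h, and with ratios centred on these medians 0 members passed between vehicle arrays.

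**Figure D3:**
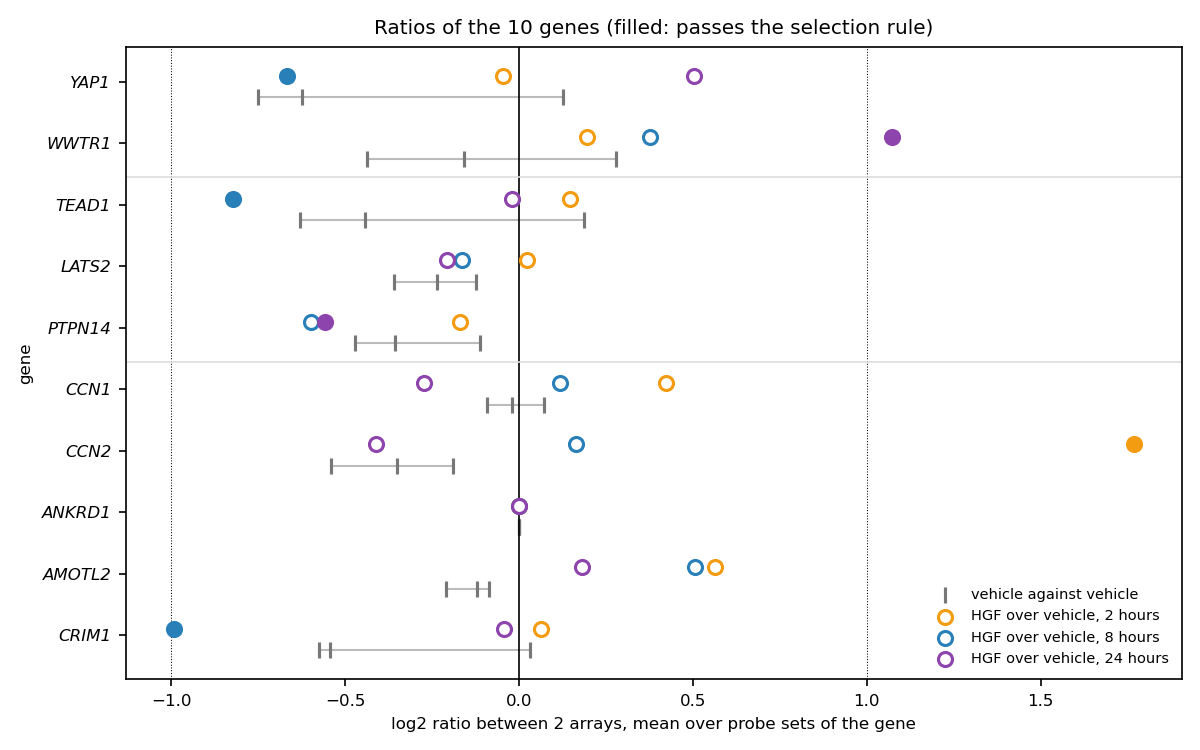
Log2 ratio of HGF over vehicle for each of the 10 genes at 2, 8 and 24 h (circles, filled where the selection rule was passed), above grey ticks for the 3 ratios between vehicle arrays of the same gene. CCN2 at 2 h (1.77) and WWTR1 at 24 h (1.07) stood farthest to the right, and CRIM1 at 8 h (-0.99) farthest to the left.

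Whether HGF had an effect shared by the 3 times was tested with limma, with a block for each time, over the 10002 genes that exceeded the floor on 3 or more arrays. In this fit the time points take the place of replicates, so that a response confined to 1 time counts as spread. Of the 9 members tested, 0 had an adjusted p (Benjamini-Hochberg over all genes) under 0.05, as was so for 0 of 10002 genes (0%). WWTR1, PTPN14 and AMOTL2 had an unadjusted p under 0.05, 3 of 9 members against 4.03% of all genes. That count was 0 with a variance trend, without the filter on low genes, with the brightest probe set or without the arrays of 8 h, and it was 1 or 2 in the other fits. The shared log2 ratio of WWTR1 was 0.55 (SE 0.21, limma adjusted p = 0.912), with HGF higher in 3 of 3 times, and it was 0.29 without the arrays of 24 h and 0.27 on the brightest probe set. AMOTL2 had 0.42 (SE 0.15, limma adjusted p = 0.912), also higher in 3 of 3, and PTPN14 had -0.44 (SE 0.15, limma adjusted p = 0.912), higher in 0 of 3. CCN2, whose ratio was large at 2 h only, had 0.51 with an SE of 0.44. The other 5 members had shared log2 ratios between -0.32 (CRIM1) and 0.09 (CCN1). By gene mean over probe sets, the 3 HGF and 3 vehicle arrays overlapped for all 9 members, while for 5.15% of the genes tested all HGF arrays were higher and for 4.61% all were lower.

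A further 27 genes of the Hippo pathway, among them kinases, scaffolds, adaptors, TEAD factors and FAT cadherins, were set beside the members. Of these, 24 were above the floor, and 0 passed at 2 h. At 8 h 8 passed as lower (STK3, SAV1, MOB1A, MOB1B, TAOK1, MAP4K4, FAT1 and FAT4) and TEAD4 alone as higher. Of all genes, 7.94% passed as lower at 8 h and 2.69% as higher, and 14.6% of those above the floor passed as lower. The split within the list depends on the scaling and on the vehicle array. With quantile normalization 4 passed as lower (MOB1A, TAOK1, FAT1 and FAT4) and 4 as higher (NF2, AMOTL1, TEAD3 and TEAD4), against 5.05% and 5.49% of all genes. Against the mean of the other 2 vehicle arrays 3 passed as lower (STK3, SAV1 and MOB1A) and 0 as higher, against 2.75% and 1.42% of all genes. The median log2 ratio of the list was -0.03, -0.20 and 0.05 at 2, 8 and 24 h. Between vehicle arrays MOB1A, TAOK1 and MAP4K4 passed as lower at 24 over 8 h, where 2.97% of all genes did. MOB1A and TAOK1 also passed as lower at 24 over 2 h, where 1.16% of all genes did. At 24 h 1.03% of all genes passed as higher and 0.556% as lower. In the list MAP4K4 passed as higher, with 0.87, and WWC1 as lower, with -0.52, a ratio that holds a bound. Neither passed at 24 h with all 3 or with the other 2 vehicle arrays as reference, where AJUBA passed as lower in both (-0.71 and -0.74) and TAOK1 in the latter (-0.65).

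FAT1, a giant protocadherin upstream of the Hippo kinases, read 93.6 with vehicle and 32.7 with HGF at 8 h, a log2 ratio of -1.52, and 51.5 and 54.8 at 24 h. FAT4, another such protocadherin, read 129 and 51.0 at 8 h, a log2 ratio of -1.34. MOB1B, which activates the LATS kinases, read 208 and 96.5 at 8 h, a log2 ratio of -1.11. All 3 were low in the HGF array of 8 h and near vehicle at 2 h. The mean log2 ratio of MOB1A, the close relative of MOB1B, was -1.30 over 4 probe sets at 8 h, although its brightest probe set went only from 539 to 410.1. The vehicle array of 8 h, on which these ratios rest, was above the vehicle array of 24 h for all 4, by log2 ratios of 24 over 8 h of -0.86 for FAT1, -0.65 for FAT4, -0.90 for MOB1A and -0.84 for MOB1B. Vehicle ratios of 8 over 2 h were smaller in size, at 0.25 for FAT1, 0.42 for FAT4, 0.16 for MOB1A and 0.12 for MOB1B. TEAD4 had a log2 ratio of 0.77 at 8 h, with 147 for vehicle and 360.3 for HGF on its brightest probe set, opposite in direction to TEAD1 at the same time.

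Of 15 other genes of a known YAP and TAZ target signature, 14 had a probe set and 12 were above the floor. NUAK2 was not analysed here. Over all genes, 0.420% passed as higher at 2 h, and 2.69% as higher and 7.94% as lower at 8 h. At 24 h the shares were 1.03% higher and 0.556% lower. F3, which encodes tissue factor, passed as higher at 2 h, with 99.7 for vehicle and 231 for HGF, a log2 ratio of 1.21. At 8 h F3 read 159 and 108, so that HGF was above vehicle at 2 h and below it at 8 h. Between vehicle arrays the F3 log2 ratio was 0.67 at 8 over 2 h, -0.53 at 24 over 2 h and -1.21 at 24 over 8 h. The last is as large in size as the ratio with HGF at 2 h. AXL, a receptor tyrosine kinase, passed as higher at 8 h, with 548 and 1635 on its brightest probe set and a gene log2 ratio of 1.29, while with the other 2 vehicle arrays as reference AXL had 0.78 and did not pass at 8 h but passed at 24 h with 0.84. NT5E, which encodes the surface enzyme CD73, passed as higher at 24 h, with 417 and 859 and a log2 ratio of 0.96. Passing as lower at 8 h were ASAP1 with a log2 ratio of -0.78 and TGFB2, a TGF-beta ligand, with -0.94 or lower. Neither passed at 8 h with all 3 vehicle arrays as reference (-0.52 and -0.50) or with the other 2 (-0.38 and -0.27), and ASAP1 did not with quantile normalization. At 24 h TGFB2 passed as lower with either of these references (-0.84 and -1.09), and F3 with the other 2 (-1.09). The median of this list was 0.05, -0.28 and -0.07 at 2, 8 and 24 h, and against the vehicle array of the same time each gene that passed did so at a single time. Between vehicle arrays F3, GADD45A and TGFB2 passed as lower at 24 over 8 h, where 2.97% of all genes did. TGFB2 also passed as lower at 24 over 2 h, where 1.16% of all genes did. Of the other 4 CCN family genes, CCN5 alone was above the floor. It read 62.3 with vehicle and 12.01 with HGF at 24 h, which gives a log2 ratio of -1.05 or lower, and 0.06 and -0.28 at 2 and 8 h.

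**Figure D4:**
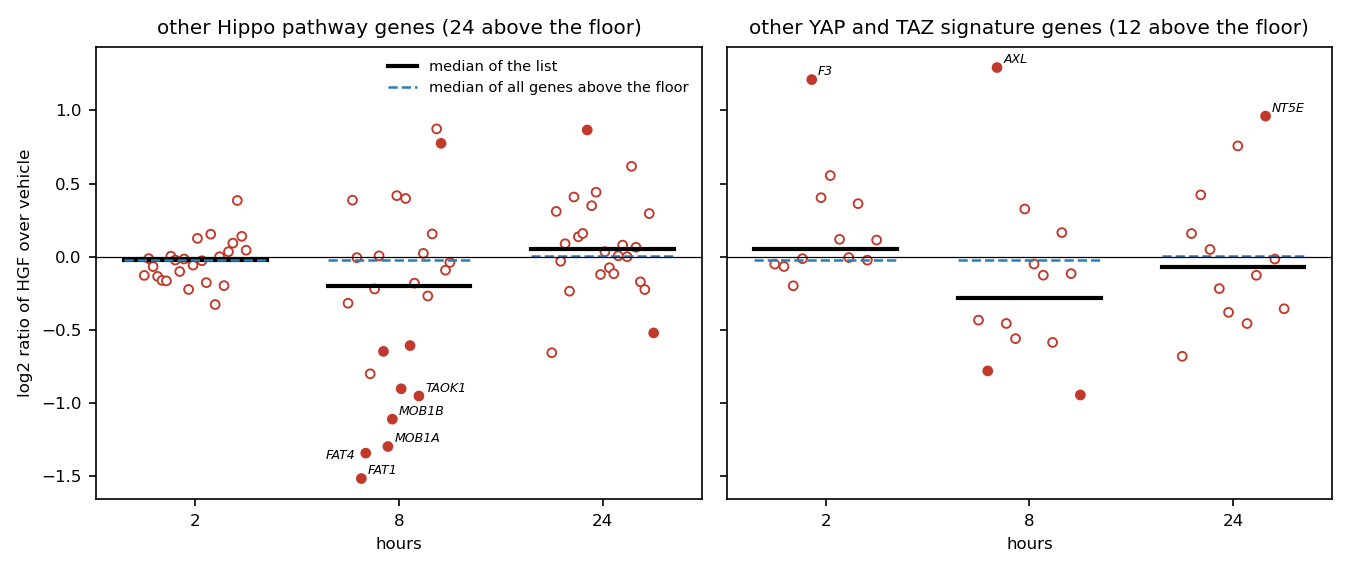
Log2 ratio of HGF over vehicle at 2, 8 and 24 h for 24 other Hippo pathway genes (left) and 12 other signature genes (right), 1 point per gene, filled where the selection rule was passed, with the median of the list (black) and of all genes above the floor (blue dashed). FAT1 and FAT4 were lowest at 8 h (-1.52 and -1.34), and F3, AXL and NT5E were highest at 2, 8 and 24 h among signature genes.

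The genes whose level over the 6 arrays was most like that of WWTR1 were BTG1 (Pearson r of log2 values 0.99), STK17A (0.98) and MKNK2 (0.98), among 10001 genes. For CCN1 they were CDK9 (0.98), AKT1S1 (0.98) and FJX1 (0.97), of which FJX1 is itself in the signature list. Among the members, TEAD1 and CRIM1 were the most alike, with r of 0.98, and both were lowest in the HGF array of 8 h. LATS2 and PTPN14 had r of 0.93 and CCN1 and CCN2 0.91, while YAP1 and WWTR1 had 0.07 and WWTR1 and PTPN14 had -0.76. These are descriptions of 6 arrays that share time in culture and array scaling, in which high values of r are frequent among 10001 genes.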

How the data were processed

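Expression was measured on 6 Affymetrix U133plus2.0 arrays, and conditions came from the labels. The deposited files give the authors' intensities, unlogged, for 54675 probe sets. MAS5 is named in the processing notes of the submitters. Array means of the deposited intensities ran from 149.1 to 205.4 and values under 30 occur, so the mean of 150 and the floor of 30 that the methods describe were applied here. The quantile normalization they also describe was run as an alternative. No array column was left out. Of 42898 probe sets in the platform annotation, 41097 carry 1 symbol and 1801 more than 1. The remaining 11777 are unnamed here. Only probe sets with 1 symbol, without controls, were used.

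Ratios and the selection rule were computed over 19775 genes as given above. Where 1 array of a pair lies at the floor, the ratio is a bound. Precision is limited by the number of arrays. Vehicle arrays compared with each other, which adds time in culture, gave the spread to read a ratio against. The shared effect was fitted with lmFit and eBayes of limma on log2 gene values. Members and gene lists were chosen with earlier results of these data known. Named genes are the 10 members, up to 4 genes with the largest ratio from each further list, and the 3 genes most like WWTR1 and most like CCN1. Further genes that passed within a list were named after their values were seen. Symbols matched 7 members to 9 promoter windows of RefSeq on GRCh38.p14, searched on both strands. Each step was tested on simulated data.

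The selection rule was repeated without a floor and with a floor of 60. It was repeated after quantile normalization or centring, and with the median or the brightest probe set. Probe sets were also restricted to names without _s_at or _x_at, to a mean of 100 or more, or to those that exceeded the floor. A 3-fold limit and the mean of all vehicle arrays as reference completed these. The mean of the other 2 vehicle arrays as reference was added after seeing the data. For limma, the fit was repeated without the block, with a trend, without the filter, with the brightest probe set, after quantile normalization, and leaving out each time. The fits used limma 3.58.1 in R 4.3.3. Other steps used numpy 2.4.6 and pandas 2.3.3 in Python 3.11.15, and plots matplotlib 3.10.9.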

Additional observations from a re-analysis of the deposited data

Results flagged for a closer look

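YAP1 went opposite ways with HGF at 2 times, with a log2 ratio of -0.67 at 8 h and of 0.50 at 24 h. With 1 array per condition the difference between the times was not tested. Against the mean of the other 2 vehicle arrays the YAP1 log2 ratio was -0.23 at 8 h and -0.18 at 24 h. When all 3 vehicle arrays were averaged as reference, YAP1 had -0.37 at 8 h and 0.05 at 24 h. The direction of YAP1 at 24 h thus depended on the reference.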

How the results depend on the processing

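CCN2 remained the only member to pass at 2 h under all 12 alternatives, with log2 ratios between 1.77 and 2.13. Its single bright probe set gives the same ratio whichever floor, probe set filter or summary over probe sets is used. All alternatives also use the same HGF array of 2 h, so they do not replace a replicate. The share of all genes passing as higher at 2 h ran from 0.131% (3-fold threshold) to 14.0% (no floor). The number of members passing at 8 h (3 in the report) was 1 with the brightest probe set (TEAD1) and 0 with a 3-fold threshold. In these 2 settings 7.09% and 2.52% of all genes passed as lower at 8 h. Without probe sets ending in _s_at or _x_at it was 2 (YAP1 and TEAD1), where 7.15% of all genes passed as lower. Against the mean of all 3 vehicle arrays it was 3, with WWTR1 higher and TEAD1 and CRIM1 lower. There 1.53% of all genes passed as higher and 4.15% as lower. The number at 8 h was 4 with no floor (LATS2 added), where 26.9% of all genes passed as lower. It was 2 against the mean of the other 2 vehicle arrays (WWTR1 higher, CRIM1 lower), where 2.75% of all genes passed as lower and 1.42% as higher. At 24 h the number (2 in the report) was 1 with a floor of 60 and with the median over probe sets (WWTR1 in each). In these 2 settings 0.703% and 0.996% of all genes passed as higher at 24 h. It was 1 with a 3-fold threshold (PTPN14), where 0.0556% of all genes passed as lower. The number was 0 with the brightest probe set, where 1.03% passed as higher and 0.485% as lower. It was 3 with no floor (LATS2 added), where 16.6% of all genes passed as lower. Against the mean of the other 2 vehicle arrays, chosen after seeing the data, it was 4 (WWTR1 higher, and TEAD1, LATS2 and PTPN14 lower). With that reference 0.890% of all genes passed as higher at 24 h and 1.73% as lower. Between vehicle arrays, the number of calls of members (2 in the report) was 4 with no floor, from 3 members since LATS2 passed in both comparisons with 24 h. Without a floor 17.9% (24 over 2 h) and 20.9% (24 over 8 h) of all genes passed as lower, against 1.16% and 2.97% with it. The number was 1 with a floor of 60, without probe sets ending in _s_at or _x_at, or with only probe sets at 100 or more, and 0 with quantile normalization, centred ratios, the brightest probe set or a 3-fold threshold. The cause was not tested.

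WWTR1 at 24 h passed in 10 of 12 alternatives, TEAD1 at 8 h in 10 of 12, CRIM1 at 8 h in 9 of 11, PTPN14 at 24 h in 9 of 12 and YAP1 at 8 h in 8 of 12. CRIM1 has no value without probe sets ending in _s_at. WWTR1 at 8 h ranged from -0.22 to 0.73. It passed as higher against the mean of all 3 vehicle arrays (0.62) and against that of the other 2 (0.73).

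In limma 0 members had an adjusted p under 0.05 in any alternative, including the fit with no block. Leaving out the arrays of 1 time, the shared log2 ratio ranged from -0.36 to 0.23 for YAP1, from -0.42 to 0.063 for TEAD1, from -0.076 to 0.27 for CCN1, from -0.12 to 0.97 for CCN2, from 0.29 to 0.73 for WWTR1 and from -0.52 to 0.011 for CRIM1. The sign turned for CCN1 and CCN2 without 2 h and for YAP1, TEAD1 and CRIM1 without 8 h, in each case the time at which that gene had its largest ratio. The samples carry no replicate numbers, and the block for time pairs the vehicle and HGF arrays of each time. With no replicate block, 0 members were called. Genes near the floor, such as ANKRD1 and the dim probe sets of LATS2 and TEAD1, have no measured ratio at this signal.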
